A study of Mus musculus with 12 samples.

Results

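Hypoxia and glycolysis genes encode the oxygen-regulated transcription factor subunit HIF-1 alpha and its regulators, the enzymes that turn glucose into lactate, the carriers of both, and familiar targets of HIF. They were taken as a list of 34 gene names, matched to microarray probe sets that carry that name and no other. Of the 34, 31 were found in this way and 30 could be tested, among 12456 genes tested and 18193 genes with a single name on the array. Gapdh was present only as 3 control probe sets, which stayed out of the tests, and Gpi1, Eno1 and Bnip3l were not analysed here. The measurements are signals of mouse embryonic fibroblasts on 12 expression arrays, 2 in each of 6 groups. The first 3 groups are cells of IRAK4 kinase-dead animals, grown for 4 h without stimulation, for 1 h with 1 ng/ml mouse interleukin-1 beta (IL-1b), or for 4 h with it. IRAK4 relays the signal of the interleukin-1 receptor, and the kinase-dead form lacks its catalytic activity. The other 3 groups are wild-type cells under the same conditions. All were kept in the same serum-containing medium in ordinary incubators, so no group was made hypoxic per the labels. The 2 samples of a group are called biological replicates by the series design, which names no separate animals or cultures. The p-values below therefore weigh differences against the spread between such samples, pooled over all 6 groups. A kinase-dead allele cannot be checked by a transcript level, and Irak4 itself was not analysed here.

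When oxygen is plentiful, prolyl hydroxylases of the Egln family mark HIF alpha subunits for destruction. When it falls, HIF accumulates and raises transcription of glucose carriers, glycolytic enzymes, lactate dehydrogenase A and secreted factors such as VEGF-A. Inflammatory signals that activate NF-kB are also known to raise Hif1a transcription and glycolytic enzymes in normal oxygen, and fibroblasts rely on the same pathway during growth and wound repair. Transcript signals do not measure HIF protein, metabolic flux or oxygen.

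Signals of all arrays had medians of 23 to 28.3, and log2 signals correlated at 0.967 to 0.974 within groups and 0.941 to 0.973 between them. All 12 fibroblast markers listed reached the signal threshold of 25.5. The actin 3' to 5' signal ratio, which rises with RNA degradation, was 2.85 ± 0.02 (SD, n = 2) in the unstimulated kinase-dead group. The means of the other groups were 2.36 to 2.49, and the unstimulated wild-type arrays gave 2.68 and 2.14. For Gapdh the same ratio did not single out that group, with a mean of 1.53 there and 1.33 to 1.67 in the others. The part of these ratios in the results was not tested. IL-1b acted on both genotypes: of 8 well known target genes, 6 rose in kinase-dead cells and all 8 in wild-type cells at 1 h, and 7 and 8 at 4 h. The chemokine gene Cxcl2 changed by 4.02 ± 0.16 in kinase-dead cells and 8.65 ± 0.16 in wild-type cells at 4 h on the log2 scale. The same values were 0.94 ± 0.27 and 6.43 ± 0.27 for the cytokine gene Il6, the kinase-dead one not passing (adjusted p = 0.132). All tests are limma tests on log2(signal + 8), a scale that understates changes of low signals, with Benjamini-Hochberg adjustment over all 12456 genes. A gene is said to rise or fall where its adjusted p is under 0.05, and ± after a log2 value is the standard error.

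The first question was which of these genes answered IL-1b in each genotype. At 1 h, kinase-dead cells had 0 risers among the 30, against 1.56% of all genes tested (1 member was higher at an unadjusted p under 0.05 by limma), and 1 faller, Ndrg1, against 1.72%. Wild-type cells at 1 h had 2 risers, Adm and Hif1a (2.92% of all genes), and 1 faller, again Ndrg1 (4.52%). At 4 h, 0 members rose in kinase-dead cells (0.442%; 3 were higher at an unadjusted p under 0.05 by limma) and 1 fell, Aldoa (0.177%). In wild-type cells at 4 h 6 rose, against 4.69% of all genes, and 3 fell, against 7.34%. These risers were Pfkfb3, Hk2, Slc16a1, Vegfa, Hif1a and Slc2a1, and the fallers Mxi1, Pfkm and Ldhb. Comparing 4 h with 1 h directly, 0 rose (2.24%) and 2, Adm and Aldoa, fell (1.8%) in kinase-dead cells. At an unadjusted p under 0.05 by limma, 2 members were higher and 4 lower there. In wild-type cells 7 rose and 7 fell (8.41% and 10.6%). In kinase-dead cells, an unadjusted p under 0.05 in either direction was reached by 3 of 30 members at 1 h, against 16.6% of all genes. At 4 h it was 8 (3 higher and 5 lower) against 13.6%, and for 4 h over 1 h 6 against 18.2%. The median change over the members at 4 h was -0.03 in kinase-dead cells and -0.11 in wild-type cells, beside medians over all genes of -0.01 and -0.12, which lie close to those of the members. The shift of all genes at 4 h in wild-type cells depends on the scaling: after centring arrays on their medians, 1176 of all genes rose and 436 fell, against 584 and 914 without centring, and 8 members rose and 1 fell. The same centring changed the counts of all genes to 66 higher and 15 lower from 55 and 22 in kinase-dead cells at 4 h, to 673 and 398 from 364 and 563 in wild-type cells at 1 h, and to 1271 and 983 from 1048 and 1316 between 4 h and 1 h in wild-type cells. Both time points share the unstimulated arrays, which were grown for 4 h, so time in culture differs between the 1 h groups and their control.

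**Figure D1:**
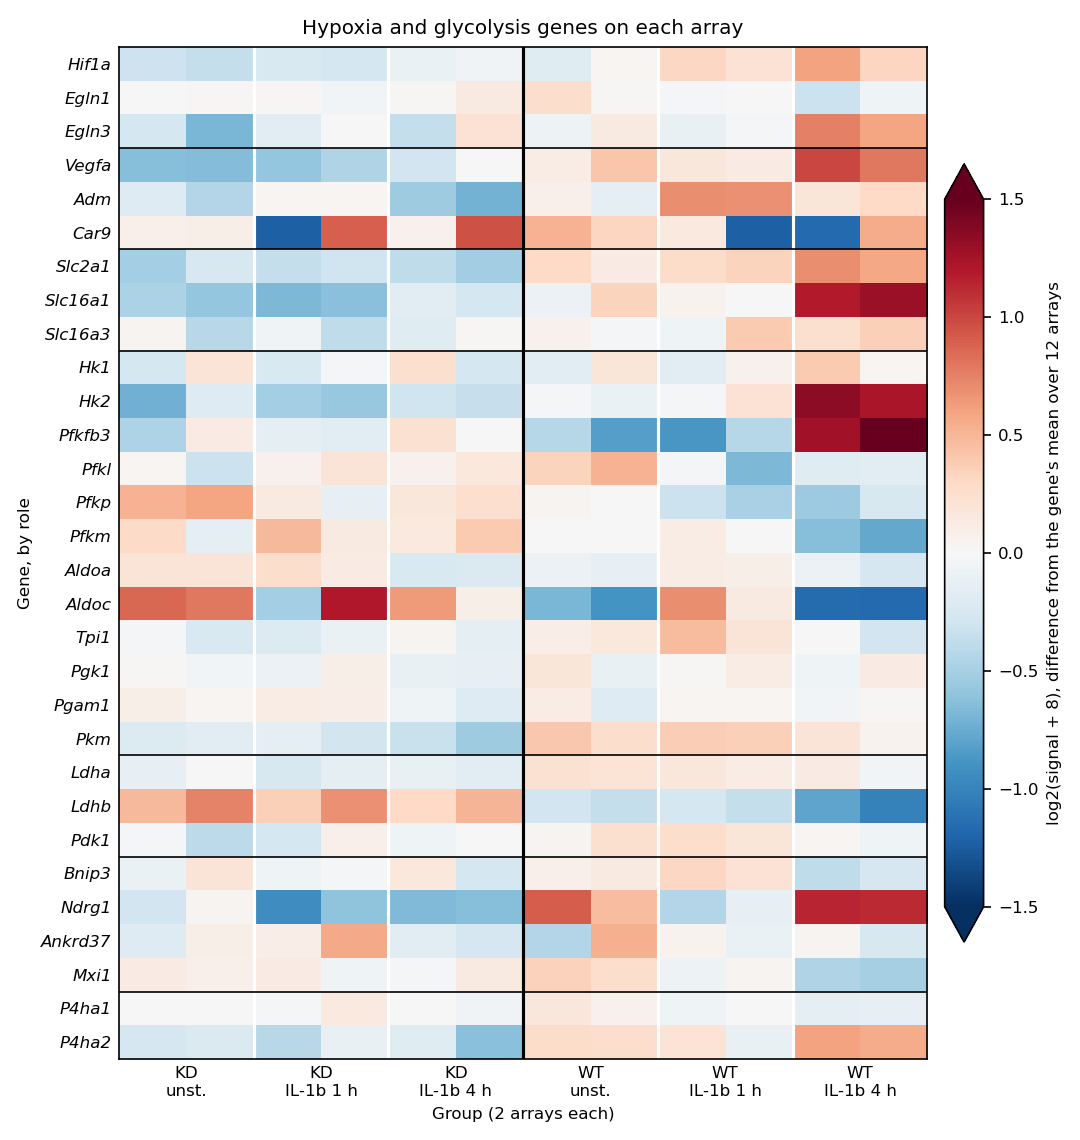
Each row is 1 of the 30 tested members, ordered by role, and each column 1 array, with kinase-dead (KD) arrays left of wild-type (WT) ones. Colour gives log2(signal + 8) minus the gene's mean over the 12 arrays; the wild-type arrays at 4 h stand out for Pfkfb3, Hk2, Slc16a1, Vegfa and Ndrg1.

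Hexokinase and the enzyme that sets the pace of phosphofructokinase showed the largest rises among the members, in wild-type cells at 4 h. Hk2 encodes the inducible hexokinase, which traps glucose in the cell by phosphorylating it. Hk2 had signals of 334 and 483 without stimulation, 387 and 372 at 1 h and 447 and 435 at 4 h in kinase-dead cells, against 545 and 516, then 541 and 646, then 1412 and 1307 at the same points in wild-type cells. The wild-type 4 h arrays were the highest of all 12 and every kinase-dead array lay below every wild-type array. At 1 h neither genotype passed, with -0.08 ± 0.14 in kinase-dead and 0.15 ± 0.14 in wild-type cells. At 4 h kinase-dead cells gave 0.13 ± 0.14 (adjusted p = 0.742), and wild-type cells rose by 1.34 ± 0.14 (adjusted p = 5.29e-06). Between 4 h and 1 h in wild-type cells Hk2 rose by 1.19 ± 0.14 (adjusted p = 1.35e-05). Pfkfb3 makes the activator of phosphofructokinase and so speeds glycolysis. Pfkfb3 had signals of 104 and 159.6 without stimulation, 132 and 129 at 1 h and 172 and 146 at 4 h in kinase-dead cells, against 106 and 78.6, then 75.9 and 106, then 362 and 505 at the same points in wild-type cells. Only the wild-type 4 h arrays stand apart, and the unstimulated groups overlap. At 4 h the change was 0.28 ± 0.22 (adjusted p = 0.626) in kinase-dead cells and a rise of 2.13 ± 0.22 (adjusted p = 4.42e-06) in wild-type cells, which differed between 4 h and 1 h by 2.15 ± 0.22 (adjusted p = 2.73e-06). A dim further probe set of Pfkfb3, with signals of 4.30 to 34.8, made no call. It reached the signal threshold on 2 arrays, both kinase-dead, and read 4.3 and 7.5 on the wild-type 4 h arrays. Averaging both probe sets on the log2 scale gave a wild-type change of 0.95 at 4 h with adjusted p = 0.0558. Hk1, the constitutive hexokinase, stayed between signals of 51.5 and 85.6 with no call.

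The carriers MCT1 and GLUT1 rose in wild-type cells at 4 h as well. Slc16a1 encodes the monocarboxylate carrier MCT1, which moves lactate and pyruvate across the cell membrane. Slc16a1 had signals of 398 and 369.5 without stimulation, 346 and 357 at 1 h and 493 and 459 at 4 h in kinase-dead cells, against 522 and 701, then 576 and 553, then 1281 and 1371 at the same points in wild-type cells. All 6 kinase-dead arrays lay below all 6 wild-type arrays, and the wild-type 4 h pair was far above the rest. Kinase-dead cells gave 0.31 ± 0.13 (adjusted p = 0.284) at 4 h. Wild-type cells rose by 1.12 ± 0.13 (adjusted p = 1.01e-05) at 4 h, and by 1.22 ± 0.13 (adjusted p = 2.69e-06) relative to 1 h. Slc2a1 encodes the glucose carrier GLUT1. Slc2a1 had signals of 1933 and 2319 without stimulation, 2136 and 2227 at 1 h and 2101 and 1909.8 at 4 h in kinase-dead cells, against 3389.9 and 2995, then 3336 and 3467, then 4476 and 4109 at the same points in wild-type cells. Again no kinase-dead array reached any wild-type array. Kinase-dead cells at 4 h gave -0.08 ± 0.09 (adjusted p = 0.778), and the wild-type rise was 0.43 ± 0.09 (adjusted p = 0.00649), where both further probe sets of the gene rose too. That call was lost without wild-type 4 h replicate 1 (adjusted p = 0.0662). The wild-type difference of 4 h from 1 h was 0.33 ± 0.09 (adjusted p = 0.0203), and was lost without wild-type 1 h replicate 1 (0.132) or 2 (0.0742) or wild-type 4 h replicate 1 (0.142). Slc16a3, the lactate exporter MCT4, ranged from 30.7 to 59.9 with no call in any comparison.

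Promoter sequences are shown for Pfkfb3, Hk2 and Slc16a1. By size these led the differences between genotypes in the 4 h response (below), among the members that passed that test and had a window at hand. The first of 2 windows of Ldha is shown too, because it held the most matches of any member window. HIF binds the core ACGTG or GCGTG, which was searched on both strands of each gene's window from 250 bases before to 50 after its start. The windows are RefSeq's, in build GRCm38.p6, read 5' to 3' on the gene's strand, and capitals mark matches on either strand, so CACGT and CACGC mark matches on the opposite strand. The palindrome CACGTG, the E-box bound by Myc and its relatives, holds a match on each strand and cannot be separated from the HIF core by letters.
Hk2 (chr6:82774405-82774704, minus strand): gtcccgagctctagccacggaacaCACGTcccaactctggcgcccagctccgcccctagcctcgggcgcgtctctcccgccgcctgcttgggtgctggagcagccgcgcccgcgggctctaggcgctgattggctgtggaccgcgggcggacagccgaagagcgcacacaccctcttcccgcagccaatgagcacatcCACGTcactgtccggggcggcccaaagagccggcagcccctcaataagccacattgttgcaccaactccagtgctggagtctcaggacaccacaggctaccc
Pfkfb3, start 1 (chr2:11553880-11554179, minus strand): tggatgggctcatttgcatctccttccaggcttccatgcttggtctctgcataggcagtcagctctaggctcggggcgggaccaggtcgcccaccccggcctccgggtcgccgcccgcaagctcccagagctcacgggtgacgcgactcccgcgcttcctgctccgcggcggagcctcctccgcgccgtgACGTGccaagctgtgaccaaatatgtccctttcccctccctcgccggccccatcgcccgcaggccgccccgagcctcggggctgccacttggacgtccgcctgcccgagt
Pfkfb3, start 2 (chr2:11502041-11502340, minus strand): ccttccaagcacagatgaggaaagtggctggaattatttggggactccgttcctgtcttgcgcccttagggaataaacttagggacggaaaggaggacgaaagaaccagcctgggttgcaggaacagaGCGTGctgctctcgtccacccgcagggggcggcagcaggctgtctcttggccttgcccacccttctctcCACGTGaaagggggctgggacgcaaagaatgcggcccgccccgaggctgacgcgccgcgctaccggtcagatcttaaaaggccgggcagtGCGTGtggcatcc
Slc16a1 (chr3:104638414-104638713, plus strand): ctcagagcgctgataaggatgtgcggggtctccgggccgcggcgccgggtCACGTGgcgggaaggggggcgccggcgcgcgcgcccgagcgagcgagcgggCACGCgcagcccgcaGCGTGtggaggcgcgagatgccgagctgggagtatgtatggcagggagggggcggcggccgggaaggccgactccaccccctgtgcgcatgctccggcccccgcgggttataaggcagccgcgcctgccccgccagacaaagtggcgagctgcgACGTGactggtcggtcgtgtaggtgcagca
Ldha (chr7:46845554-46845853, plus strand): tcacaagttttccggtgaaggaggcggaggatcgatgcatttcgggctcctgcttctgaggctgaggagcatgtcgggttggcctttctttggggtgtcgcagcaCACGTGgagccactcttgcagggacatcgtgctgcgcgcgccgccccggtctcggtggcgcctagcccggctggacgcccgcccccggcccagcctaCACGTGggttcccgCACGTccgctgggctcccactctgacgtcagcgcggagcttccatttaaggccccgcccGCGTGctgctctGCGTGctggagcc
In these windows Hk2 had 2 matches, the 2 starts of Pfkfb3 1 and 4, Slc16a1 5 and Ldha 7, counting each strand. The second window of Ldha, not printed, had 2. RefSeq windows were at hand for 32 of the 34 listed genes, not for Ndrg1 and Bnip3l. Of the 32, 30 genes (93.8%) had ACGTG or GCGTG in at least 1 window, against 46.7% of all 27025 genes with a window and 66.7% of the 10024 of them tested here. ACGTG alone was in 75% of the 32, 21.8% of all genes and 29% of the tested genes, and GCGTG in 65.6%, 35.2% and 55.1%. CACGTG was in 18.8%, 8.09% and 11.6%. A gene counted if any of its windows matched, and the number of windows per gene was not matched between the sets. Counted by window, 39 of 48 member windows had ACGTG or GCGTG, against 43.8% of all 32851 windows. The list was chosen to hold familiar targets of HIF, so a high share could follow from that choice. These shares count letters, and base composition was not matched between the sets.

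**Figure D2:**
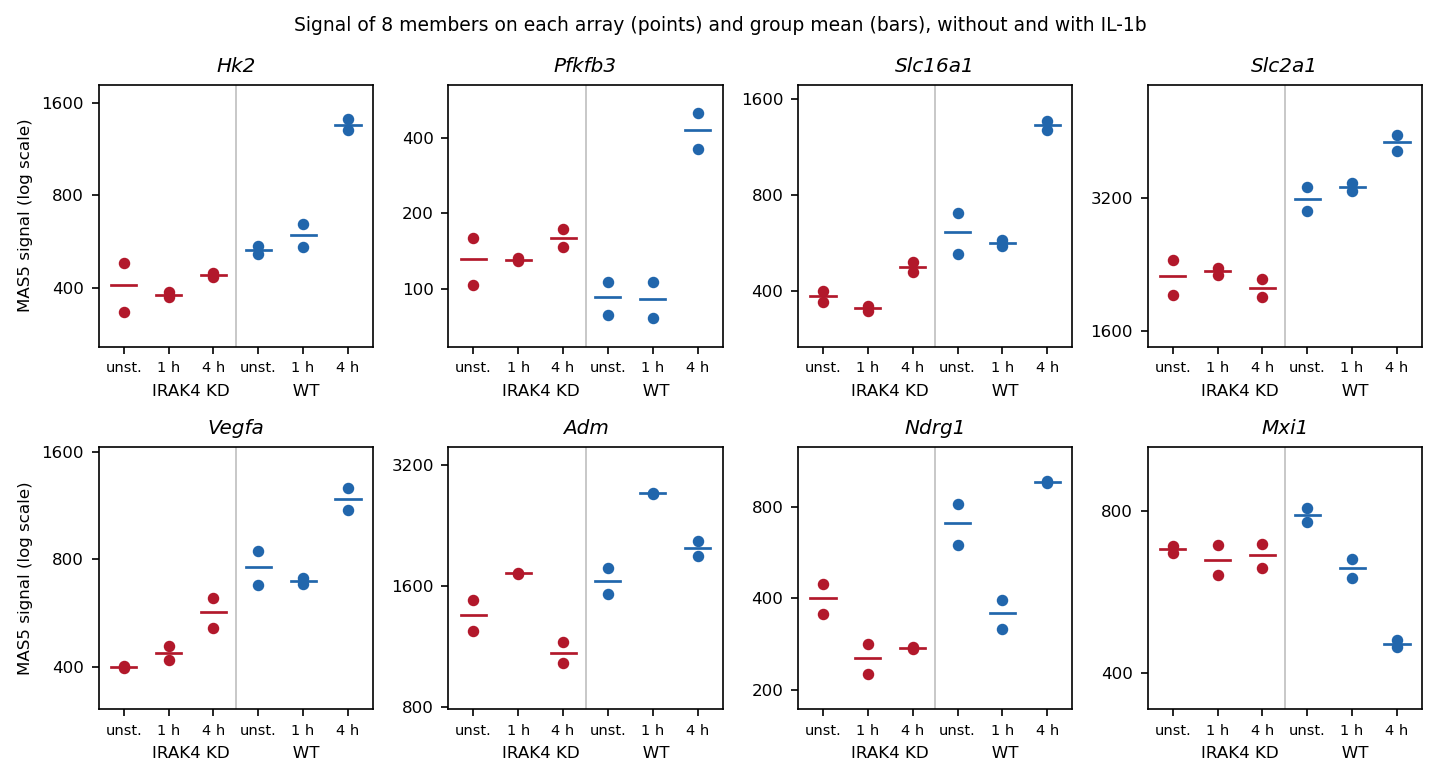
Points are single arrays and short bars group means of the MAS5 signal, on a log axis with its own range in each panel; kinase-dead groups stand left of wild-type groups. Hk2, Pfkfb3 and Slc16a1 are high on both wild-type 4 h arrays, Adm on both wild-type 1 h arrays, and Mxi1 is lowest on the wild-type 4 h arrays.

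Hif1a itself and Vegfa, its best known target, rose in wild-type cells. Hif1a encodes the oxygen-regulated subunit of HIF-1. Hif1a had signals of 2979.5 and 2890 without stimulation, 3157 and 3072 at 1 h and 3458 and 3555 at 4 h in kinase-dead cells, against 3269 and 3759, then 4587 and 4278, then 5612 and 4635 at the same points in wild-type cells. Wild-type 4 h replicate 1 was the highest array, and all stimulated wild-type arrays lay above all kinase-dead ones. Kinase-dead cells gave 0.09 ± 0.09 (adjusted p = 0.704) at 1 h, then 0.26 ± 0.09 (adjusted p = 0.212) at 4 h. Wild-type Hif1a rose by 0.34 ± 0.09 (adjusted p = 0.0311) at 1 h and 0.54 ± 0.09 (adjusted p = 0.000705) at 4 h. The 4 h call held in each of 22 alternative fits, whereas the 1 h call was lost without wild-type unstimulated replicate 1 (0.151) and without wild-type 1 h replicate 1 (0.215) or 2 (0.0905). A dimmer Hif1a probe set had signals of 442 and 403 without stimulation, 614 and 619.5 at 1 h and 569 and 558 at 4 h in kinase-dead cells, against 642 and 639, then 891 and 858, then 1098 and 1348 at the same points in wild-type cells. It was called higher in kinase-dead cells at 1 h (0.54 ± 0.11, adjusted p = 0.0136, adjusted over all probe sets) as well as at 1 h and 4 h in wild-type cells. Vegfa encodes the main growth factor of blood vessels. Vegfa had signals of 403 and 397 without stimulation, 418 and 459 at 1 h and 514 and 625 at 4 h in kinase-dead cells, against 680.4 and 845, then 709.6 and 684, then 1269 and 1096 at the same points in wild-type cells. Its 4 h arrays were the highest of each genotype, and the kinase-dead ones stayed below every wild-type array. The kinase-dead change at 4 h was 0.49 ± 0.13 (adjusted p = 0.094), which does not pass. The wild-type rise at 4 h was 0.63 ± 0.13 (adjusted p = 0.0029), which became adjusted p = 0.05 without wild-type 4 h replicate 1. Relative to 1 h it was 0.75 ± 0.13 (adjusted p = 0.000409). The further probe set of Vegfa was not called in either wild-type comparison.

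Adm was highest at 1 h. It encodes adrenomedullin, a vasodilator peptide and a target of HIF. Adm had signals of 1475 and 1240.4 without stimulation, 1721 and 1721 at 1 h and 1159 and 1028 at 4 h in kinase-dead cells, against 1774 and 1532, then 2737 and 2708, then 1904 and 2069 at the same points in wild-type cells. The 1 h arrays were the highest of each genotype, and in kinase-dead cells the 4 h arrays were the lowest. Kinase-dead cells gave 0.35 ± 0.10 (adjusted p = 0.0755) at 1 h, and at 4 h fell relative to 1 h (-0.65 ± 0.10, adjusted p = 0.00142). Wild-type cells rose by 0.72 ± 0.10 (adjusted p = 0.000233) at 1 h, and at 4 h fell relative to 1 h (-0.45 ± 0.10, adjusted p = 0.00427). A dimmer probe set of Adm was not called in this kinase-dead comparison (-0.57 ± 0.16, adjusted p = 0.0764), and was called in the same direction in both wild-type ones. Without the variance trend in limma the kinase-dead fall had adjusted p = 0.0681.

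Ndrg1, a gene induced by hypoxia and other cell stress, fell at 1 h in both genotypes. Ndrg1 had signals of 356 and 448 without stimulation, 225 and 284 at 1 h and 272 and 277 at 4 h in kinase-dead cells, against 821 and 600, then 318 and 397, then 972 and 957 at the same points in wild-type cells. In kinase-dead cells both stimulated pairs lay below the unstimulated pair, and in wild-type cells the 1 h pair was the lowest and the 4 h pair the highest. The log2 change at 1 h was -0.64 ± 0.16 (adjusted p = 0.0373) in kinase-dead cells and -0.97 ± 0.16 (adjusted p = 0.00109) in wild-type cells. Kinase-dead cells at 4 h gave -0.53 ± 0.16 (adjusted p = 0.15) against unstimulated cells and 0.12 ± 0.16 (adjusted p = 0.769) against 1 h. In wild-type cells Ndrg1 rose between 1 h and 4 h by 1.42 ± 0.16 (adjusted p = 7.83e-06), to a level that did not pass against unstimulated cells (0.45 ± 0.16, adjusted p = 0.0791). Of 3 further probe sets of Ndrg1, 0 were called in the kinase-dead 1 h comparison and 2 in the same direction in both wild-type comparisons. The kinase-dead 1 h call was kept in 5 of 12 fits that each leave out 1 array. It was lost without kinase-dead unstimulated replicate 2 (0.365), kinase-dead 1 h replicate 1 (0.289) or 2 (0.0665), kinase-dead 4 h replicate 1 (0.0569) or 2 (0.0574), and wild-type 4 h replicate 1 (0.0559) or 2 (0.0562).

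Mxi1, Pfkm and Ldhb fell in wild-type cells at 4 h. Mxi1 encodes a partner of Max that opposes Myc, and it is a known HIF target. Mxi1 had signals of 689 and 668 without stimulation, 691 and 608 at 1 h and 627 and 695 at 4 h in kinase-dead cells, against 807 and 763, then 600.2 and 651, then 461 and 447 at the same points in wild-type cells. The kinase-dead arrays stayed within a narrow band while the wild-type 4 h pair was the lowest of all. At 4 h the change in kinase-dead cells was -0.04 ± 0.10 (adjusted p = 0.914). In wild-type cells Mxi1 fell, with a change of -0.78 ± 0.10 at 4 h (adjusted p = 7.29e-05), a call kept in each of 22 alternative fits, and of -0.45 ± 0.10 (adjusted p = 0.00551) relative to 1 h. The call relative to 1 h was lost without wild-type 1 h replicate 2 (0.0689). Pfkm, the muscle form of phosphofructokinase, had signals of 113 and 82.7 without stimulation, 132 and 101 at 1 h and 102 and 123 at 4 h in kinase-dead cells, against 90.9 and 91.6, then 99.8 and 91, then 56 and 50.4 at the same points in wild-type cells. The wild-type 4 h pair lay below every other array. Kinase-dead cells at 4 h gave 0.19 ± 0.20 (adjusted p = 0.729), and wild-type cells a change of -0.70 ± 0.20 (adjusted p = 0.0291) from unstimulated cells and -0.76 ± 0.20 (adjusted p = 0.0123) from 1 h. The first was lost without either wild-type unstimulated array (0.088 and 0.0781) or either wild-type 4 h array (0.0661 and 0.138), and under median centring (0.0849). The second was lost without wild-type 1 h replicate 1 (0.0881) or wild-type 4 h replicate 2 (0.0774).

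Ldhb, the lactate dehydrogenase subunit that favours pyruvate formation, had signals of 239 and 286 without stimulation, 219 and 276 at 1 h and 208 and 243 at 4 h in kinase-dead cells, against 136 and 129, then 139 and 129, then 94.1 and 79.3 at the same points in wild-type cells. Every kinase-dead array lay above every wild-type array, and the wild-type 4 h pair was the lowest. Kinase-dead cells at 4 h gave -0.21 ± 0.16 (adjusted p = 0.622). In wild-type cells Ldhb fell, with a change of -0.57 ± 0.16 at 4 h (adjusted p = 0.0283) and of -0.59 ± 0.16 relative to 1 h (adjusted p = 0.0161). Of its 3 further probe sets, 0 were called at 4 h and 1 for 4 h over 1 h, and the mean of all its probe sets at 4 h had adjusted p = 0.0783. The 4 h call was lost without wild-type unstimulated replicate 1 (0.101) or 2 (0.0523), without wild-type 4 h replicate 2 (0.182) and under median centring (0.0957). The 4 h over 1 h call was lost without wild-type 1 h replicate 1 (0.105) or 2 (0.0556) or wild-type 4 h replicate 2 (0.131). Ldha, the subunit that favours lactate formation and a classical HIF target, had signals of 1116 and 1209 without stimulation, 1029 and 1110.2 at 1 h and 1123 and 1088 at 4 h in kinase-dead cells, against 1430.1 and 1402, then 1371 and 1316, then 1325 and 1185 at the same points in wild-type cells. It did not pass in any comparison of IL-1b with no stimulation, with -0.07 ± 0.09 (adjusted p = 0.8) in kinase-dead cells and -0.17 ± 0.09 (adjusted p = 0.234) in wild-type cells at 4 h. Pdk1, whose product inhibits pyruvate dehydrogenase, ranged from 99.5 to 161 on its brightest probe set with no call.

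**Figure D3:**
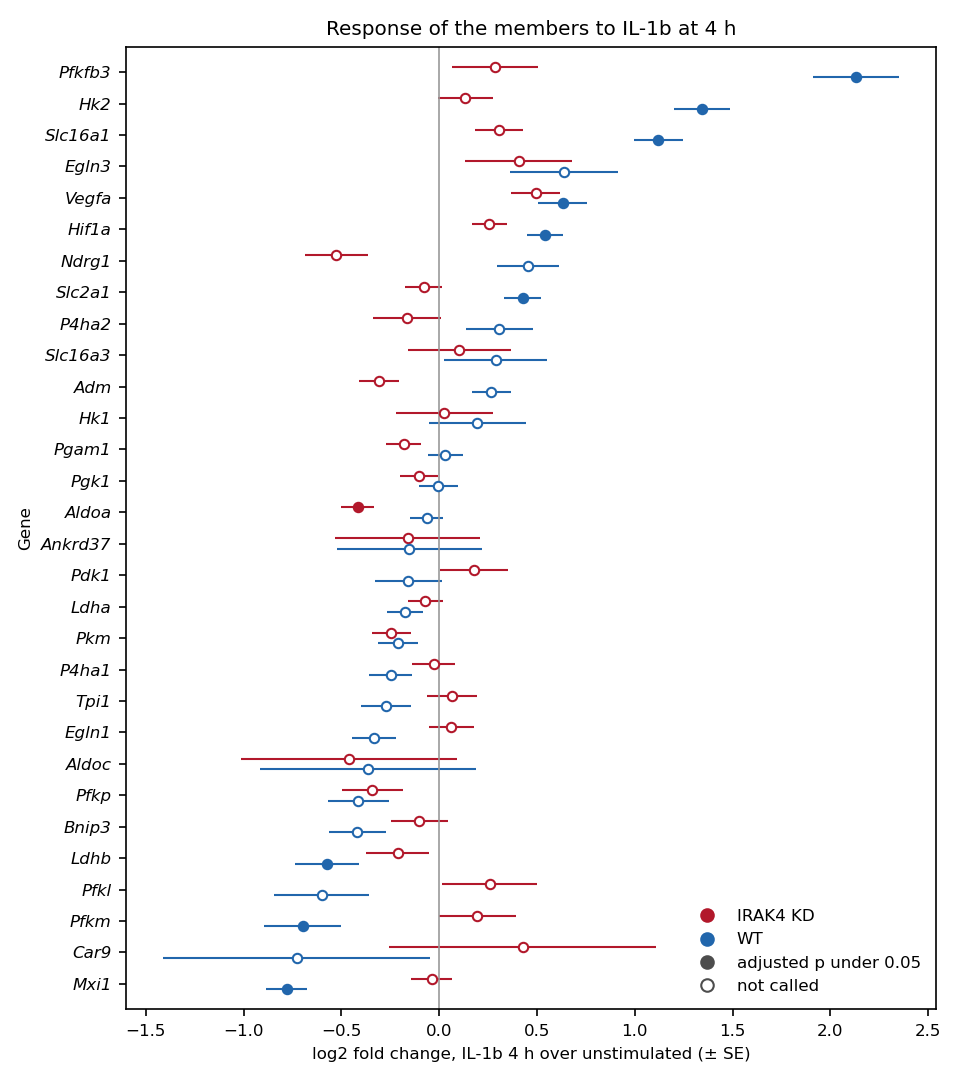
Points give the log2 fold change of IL-1b at 4 h over no stimulation for each member, with standard errors as bars, kinase-dead in red above wild-type in blue; filled points have an adjusted p under 0.05. Pfkfb3, Hk2 and Slc16a1 lead in wild-type cells, and 1 kinase-dead point, Aldoa, is filled.

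Among the remaining glycolytic enzymes, calls were few and small. Aldoa, the main aldolase of fibroblasts, had signals of 1879.5 and 1879.9 without stimulation, 1971 and 1787 at 1 h and 1401 and 1409.5 at 4 h in kinase-dead cells, against 1543 and 1504, then 1763 and 1739.5, then 1546 and 1372 at the same points in wild-type cells. Its kinase-dead 4 h pair lay below the other kinase-dead arrays, and it fell there, with a change of -0.42 ± 0.09 against unstimulated cells (adjusted p = 0.0336) and of -0.42 ± 0.09 against 1 h (adjusted p = 0.0111). In wild-type cells the 4 h over 1 h change was -0.26 ± 0.09 (adjusted p = 0.0393). None of the 4 further probe sets of Aldoa was called in any of these comparisons, and averaging all 5 gave adjusted p = 0.565, 0.684 and 0.311 for the 3 calls. Leaving out 1 array at a time kept the kinase-dead 4 h call in 4 of 12 fits; it was lost (0.0529 to 0.211) on leaving out any 1 of the 6 kinase-dead arrays or of the 2 wild-type 1 h arrays. The kinase-dead 4 h over 1 h call was lost without kinase-dead 1 h replicate 1 (0.153) or kinase-dead 4 h replicate 1 (0.0839) or 2 (0.0953). The wild-type call was lost (0.0523 to 0.279) without either unstimulated or either 4 h kinase-dead array, either wild-type 1 h array or wild-type 4 h replicate 2.

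Tpi1, triosephosphate isomerase, had signals of 619.5 and 534 without stimulation, 543 and 583 at 1 h and 644 and 564 at 4 h in kinase-dead cells, against 672 and 701, then 869.7 and 719, then 627 and 512 at the same points in wild-type cells. The wild-type 1 h pair was the highest, and 4 h was lower, with a change of -0.47 ± 0.13 (adjusted p = 0.0148), a call lost without wild-type 1 h replicate 1 (0.181) or wild-type 4 h replicate 2 (0.176). Bnip3, a mitophagy receptor induced by HIF, had signals of 273 and 335 without stimulation, 278 and 288 at 1 h and 326 and 243 at 4 h in kinase-dead cells, against 307 and 321, then 364 and 340.3, then 223 and 243 at the same points in wild-type cells. It too was highest at 1 h and lowest at 4 h in wild-type cells, with a change of -0.58 ± 0.15 (adjusted p = 0.00986) that was lost without wild-type 1 h replicate 1 (0.0796) or wild-type 4 h replicate 1 (0.0782). P4ha2, a collagen prolyl hydroxylase, had signals of 137 and 141 without stimulation, 122 and 152 at 1 h and 145 and 105 at 4 h in kinase-dead cells, against 202 and 201, then 193 and 153, then 256 and 247 at the same points in wild-type cells. All kinase-dead arrays were below all wild-type arrays. In wild-type cells P4ha2 rose by 0.53 ± 0.17 (adjusted p = 0.0397) between 1 h and 4 h, and the call was lost without wild-type 1 h replicate 2 (0.297) or wild-type 4 h replicate 1 (0.149) or 2 (0.118).

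The next question was whether the response itself differed between genotypes, tested as the kinase-dead change minus the wild-type change. At 1 h this gave 0 higher and 0 lower members by limma (0.145% and 0.345% of all genes). At an unadjusted p under 0.05 there were 3 of 30, 1 higher and 2 lower, against 8.38% of all genes. At 4 h 5 members had lower responses in kinase-dead cells, against 1.58% of all genes, and 1 had a higher one, against 1.45%. After median centring the members' counts were 7 and 1, and those of all genes 348 lower and 121 higher, against 197 and 181 without centring. Pfkfb3 differed by -1.85 ± 0.31 (adjusted p = 0.0023), Hk2 by -1.21 ± 0.20 (adjusted p = 0.00195), Slc16a1 by -0.81 ± 0.18 (adjusted p = 0.0158), Ndrg1 by -0.98 ± 0.23 (adjusted p = 0.0236) and Adm by -0.57 ± 0.14 (adjusted p = 0.0362). Mxi1 differed by 0.74 ± 0.15 (adjusted p = 0.00901), its change being near 0 in kinase-dead cells and a fall in wild-type cells. The 4 h changes of Adm from unstimulated cells passed in neither genotype. They were -0.31 ± 0.10 (adjusted p = 0.18) in kinase-dead and 0.27 ± 0.10 (adjusted p = 0.101) in wild-type cells. Those of Ndrg1, given above, did not pass either. The median difference was -0.10 over the members and 0.105 over all genes. Slc2a1 missed the threshold (-0.51 ± 0.13, adjusted p = 0.0518) and was called in 5 of the alternative fits. The test did not resolve a difference for Vegfa (-0.14 ± 0.18, adjusted p = 0.743) or for Hif1a (-0.28 ± 0.13, adjusted p = 0.275).

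Pfkfb3, Hk2 and Slc16a1 are the genes whose promoters are printed above. These differences rest on 2 arrays a group and on the model of the variance. Without limma's trend of variance on signal, 0 of the 6 passed, with adjusted p from 0.0571 (Pfkfb3) and 0.0578 (Hk2) to 0.188 (Adm). Hk2 and Pfkfb3 passed in all 12 fits that leave out 1 array, while averaging the probe sets of Pfkfb3 gave -0.35 with adjusted p = 0.725. Slc16a1 was lost without kinase-dead unstimulated replicate 1 (0.0591), kinase-dead 4 h replicate 2 (0.0798) or wild-type 4 h replicate 2 (0.0712). Mxi1 was lost without kinase-dead 4 h replicate 2 (0.0649). Ndrg1 was lost without kinase-dead unstimulated replicate 2 (0.137), kinase-dead 4 h replicate 1 (0.0905) or 2 (0.0797), wild-type unstimulated replicate 2 (0.0757) or wild-type 4 h replicate 1 (0.0824) or 2 (0.0722). None of the 3 further probe sets of Ndrg1, nor that of Adm, was called in this difference. The further probe set of Pfkfb3 entered its average through 2 kinase-dead arrays (31.3 and 34.8). It lay below the signal threshold on both wild-type 4 h arrays (4.3 and 7.5), so that average rests partly on poorly measured signals. Adm was kept in 2 of 12 such fits, those without kinase-dead unstimulated replicate 2 or wild-type unstimulated replicate 1; in the other 10 the adjusted p was 0.0546 to 0.178.

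Genotype differences were present before stimulation. In unstimulated cells 6 of 30 members were lower in kinase-dead cells, against 6.94% of all genes, and 3 were higher, against 7.38%. Averaged over the 3 conditions, 11 were lower and 4 higher, against 13.7% and 18.2% of all genes. Of the 9 unstimulated calls, 8 were among these 15. Aldoc, among the 4 higher ones, passed the filter through kinase-dead arrays alone, so the count of higher members cannot be read as support for a difference. The median over the members in unstimulated cells was -0.23 on the log2 scale, beside -0.02 over all genes. Vegfa differed by -0.91 ± 0.13 (adjusted p = 7.67e-05) in unstimulated kinase-dead cells, with signals of 403 and 397, against 680.4 and 845 in unstimulated wild-type cells, while the further probe set was not called. Ndrg1 differed by -0.80 ± 0.16 (adjusted p = 0.00232), Slc16a1 by -0.65 ± 0.13 (adjusted p = 0.0017) and Slc2a1 by -0.59 ± 0.09 (adjusted p = 0.00036). The Ndrg1 call was lost without kinase-dead unstimulated replicate 1 (0.0504); the other 3 held in each of 22 alternative fits. Pkm, the pyruvate kinase of proliferating cells, had signals of 871 and 892 without stimulation, 914 and 831 at 1 h and 798 and 691 at 4 h in kinase-dead cells, against 1331 and 1209, then 1304 and 1292, then 1153 and 1040.2 at the same points in wild-type cells. No kinase-dead array reached a wild-type one, and the unstimulated difference was -0.52 ± 0.10 (adjusted p = 0.00175). Ldha, whose values stand above, differed by -0.28 ± 0.09 (adjusted p = 0.0456), but in 10 of 12 fits without 1 array it was lost (0.0592 to 0.259). The 2 fits that kept it left out wild-type 4 h replicate 1 or 2.

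The higher members in unstimulated kinase-dead cells were Ldhb, Pfkp and Aldoa. Ldhb differed by 0.94 ± 0.16 (adjusted p = 0.000637), with all 3 further probe sets called the same way. Pfkp, the platelet form of phosphofructokinase, had signals of 232 and 244 without stimulation, 176 and 146 at 1 h and 180.1 and 192 at 4 h in kinase-dead cells, against 165 and 159, then 126 and 112, then 106 and 134 at the same points in wild-type cells. Unstimulated kinase-dead arrays were the highest of all, and the difference was 0.53 ± 0.16 (adjusted p = 0.0298). The Pfkp call was lost without either unstimulated kinase-dead array (0.0944 and 0.146) or either unstimulated wild-type array (0.0596 and 0.108). Aldoa differed by 0.30 ± 0.09 (adjusted p = 0.0246), with 0 of 4 further probe sets called. It was lost without either unstimulated kinase-dead array (0.112 and 0.107) or wild-type unstimulated replicate 2 (0.0653).

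Averaging over conditions added Hk2 (-0.88 ± 0.08, adjusted p = 2.11e-07), P4ha2 (-0.60 ± 0.10, adjusted p = 0.000141), Adm (-0.60 ± 0.06, adjusted p = 3.6e-07), Hif1a (-0.43 ± 0.05, adjusted p = 4.86e-06) and Tpi1 (-0.22 ± 0.07, adjusted p = 0.0327) to the lower members. It added Aldoc (1.02 ± 0.32, adjusted p = 0.0209) and Pfkm (0.44 ± 0.11, adjusted p = 0.00693) to the higher ones. The averages for Hk2, Adm, Ndrg1 and Slc16a1 include the 4 h condition, at which the genotypes' changes differed. The averages of Ndrg1, Slc16a1, Vegfa and Slc2a1 were -1.02 ± 0.09, -0.93 ± 0.07, -0.87 ± 0.07 and -0.77 ± 0.05, that of Pkm -0.55 ± 0.06, that of Ldha -0.26 ± 0.05, that of Pfkp 0.51 ± 0.09 and that of Ldhb 1.03 ± 0.09. Aldoc, a brain-type aldolase, was dim, with signals of 28.2 and 26.6 without stimulation, 6 and 37.9 at 1 h and 23 and 13.3 at 4 h in kinase-dead cells, against 4.4 and 2.7, then 24.3 and 14, then 1 and 0.9 at the same points in wild-type cells. It reached the signal threshold on 3 arrays, all kinase-dead, so it entered the tests through the genotype in which it was higher. The Aldoc call was lost without kinase-dead unstimulated replicate 1 (0.0512), kinase-dead 1 h replicate 2 (0.0957), kinase-dead 4 h replicate 1 (0.0692) or wild-type 1 h replicate 2 (0.0636). Tpi1 was kept in 6 of 12 such fits. It was lost (0.0501 to 0.121) without kinase-dead unstimulated replicate 2, kinase-dead 1 h replicate 1, kinase-dead 4 h replicate 2, wild-type unstimulated replicate 2, wild-type 1 h replicate 1 or wild-type 4 h replicate 1. Probe sets other than the brightest add lower calls in unstimulated kinase-dead cells for Hif1a (-0.59 ± 0.11, adjusted p = 0.00148), Adm (-0.98 ± 0.16, adjusted p = 0.000607) and Pgk1 (-0.37 ± 0.09, adjusted p = 0.0153, and -0.46 ± 0.08, adjusted p = 0.00118).

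**Figure D4:**
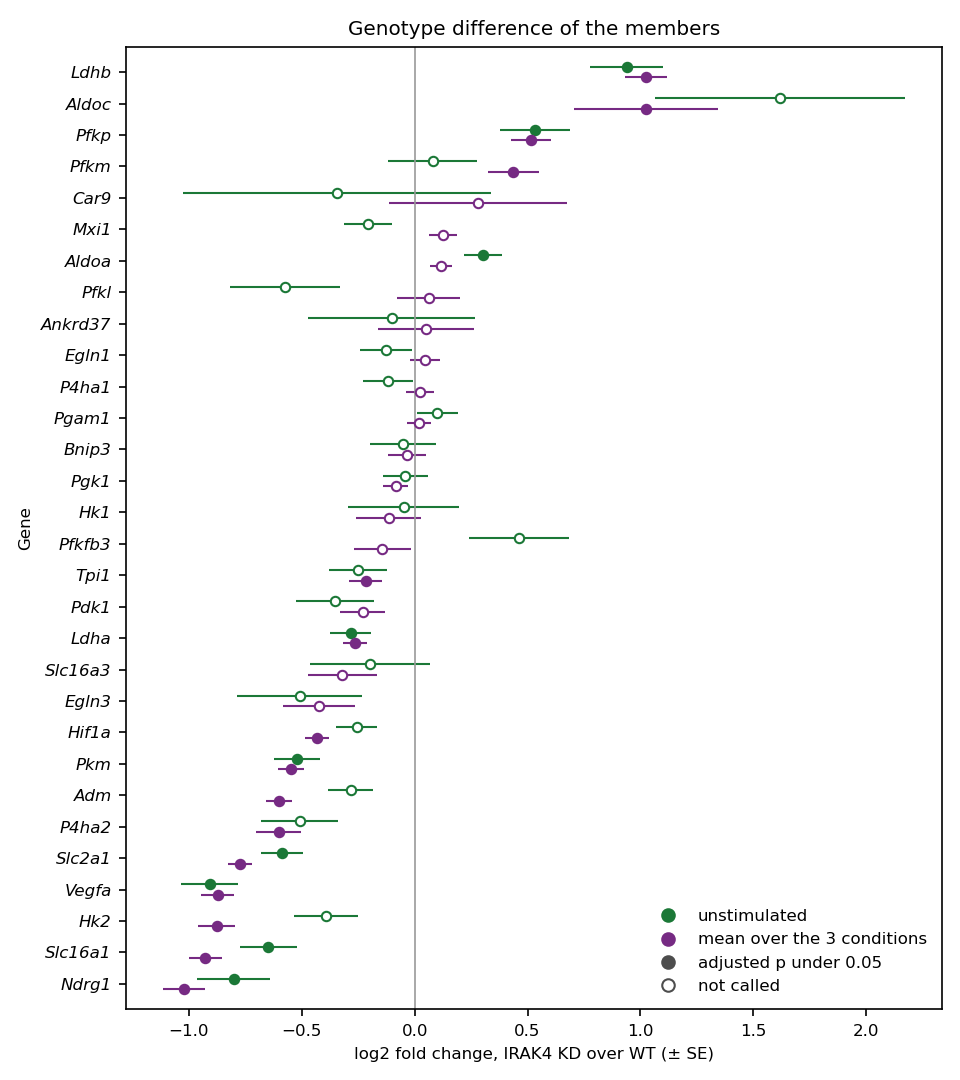
Points give the log2 fold change of kinase-dead over wild-type cells for each member, unstimulated (green) and as the mean over the 3 conditions (purple), with standard errors as bars; filled points have an adjusted p under 0.05. Ndrg1, Slc16a1, Vegfa and Slc2a1 are lower and Ldhb is higher in both.

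Some markers of other cell types differed between genotypes as well. The summed signal of 10 macrophage markers was 594 to 661 on kinase-dead arrays and 269.7 to 299 on wild-type arrays. Of these, 8 passed the filter, and 4 (Ptprc, Lyz2, Tyrobp and Fcer1g) were higher in unstimulated kinase-dead cells and 0 lower, against 7.38% and 6.94% of all genes. Adgre1, Mrc1 and Ptprc passed it through kinase-dead arrays alone, so the count cannot be read as support for a difference. Adgre1 averaged 29.1 in unstimulated kinase-dead cells and 9.70, below the signal threshold, in unstimulated wild-type cells. The same means were 40.85 and 29.65 for Csf1r and 22.85 and 18.55 for Cd68. For Cx3cr1, which did not pass the filter, they were 6.15 and 19.4, the other way round. The sum over the 5 neural markers on the array was 557 to 641 on kinase-dead arrays and 176 to 315 on wild-type arrays. Of these, Fabp7 averaged 205.8 in unstimulated kinase-dead and 33.65 in unstimulated wild-type cells, and Sox2 99.55 and 48.6. Nes averaged 190.3 and 146.5 there, Tubb3 50 and 51.4, and Dcx 15.7 and 13.35. Of the 3 endothelial, 2 epithelial and 3 muscle markers tested, 0 were called between unstimulated genotypes, too few to read anything from. Among the 12 fibroblast markers 3 were lower in unstimulated kinase-dead cells and 0 higher (the same shares of all genes apply), namely Lum (-2.32 ± 0.19), Pdgfra (-2.09 ± 0.13) and S100a4 (-0.97 ± 0.09). The part of these differences in the genotype results above was not tested. In such bulk samples fewer cells of a type and less RNA per cell cannot be told apart.

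Of the 30 tested members, 11 passed in none of the 10 comparisons. They were the HIF prolyl hydroxylases Egln1 and Egln3, the carbonic anhydrase Car9, the ankyrin repeat gene Ankrd37, the collagen prolyl hydroxylase P4ha1, and Slc16a3, Hk1, Pdk1, Pfkl, Pgk1 and Pgam1. Among them the abundant enzymes had small differences on the probe sets that represent them. Pgk1, phosphoglycerate kinase, on its brightest probe set ranged from 2771 to 3412 with log2 differences of -0.11 to 0.04 over all comparisons. Further probe sets of Pgk1 were called lower in unstimulated kinase-dead cells, as given above. Pgam1, phosphoglycerate mutase, ranged from 2266 to 2803 with differences of -0.23 to 0.10. Egln1 ranged from 503 to 759, with the lowest value in wild-type cells at 4 h (-0.33 ± 0.11, adjusted p = 0.0678), and P4ha1 from 380 to 470. Egln3, itself a HIF target, had signals of 29.7 and 48.2 at 4 h in kinase-dead cells and 73.6 and 64.7 at 4 h in wild-type cells. Its wild-type change was 0.64 ± 0.28 (adjusted p = 0.148), while its dimmer probe set rose to 64.6 and 58.7 in wild-type cells at 4 h, against 20.3 and 22.1 unstimulated (1.25 ± 0.35, adjusted p = 0.0362). Pfkl, the liver form of phosphofructokinase, ranged from 32.8 to 85.3. Car9 and Ankrd37 were near or below the signal threshold, with 1.90 to 36.7 and 16.2 to 40.7, where small changes are poorly measured. Gapdh, read from control probe sets and given here as levels only, had signals on the probe set nearest its 3' end of 2286 and 2364 without stimulation, 2390.4 and 2295 at 1 h and 1879.7 and 1919.5 at 4 h in kinase-dead cells, against 2206 and 1864, then 2372 and 2388, then 2231 and 2103 at the same points in wild-type cells.

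Further genes of the same pathways were counted from lists chosen with earlier results of these data known. Their counts at 4 h stand beside shares over all genes of 0.442% higher and 0.177% lower in kinase-dead cells, and 4.69% higher and 7.34% lower in wild-type cells, and nothing is read from a count of 0 in kinase-dead cells. Of 17 other HIF pathway components tested, 0 passed in kinase-dead cells at 4 h, and 2 rose and 0 fell in wild-type cells. Epas1, which encodes HIF-2 alpha, had signals of 279.8 and 297 without stimulation, 319.5 and 292 at 1 h and 389.6 and 367 at 4 h in kinase-dead cells, against 83.6 and 104, then 95.9 and 78.1, then 322 and 355 at the same points in wild-type cells. Wild-type cells at 4 h came near the level that kinase-dead cells held throughout. Epas1 rose by 1.77 ± 0.15 (adjusted p = 2.83e-07) in wild-type cells, its response at 4 h differed by -1.39 ± 0.21 (adjusted p = 0.000857), and unstimulated kinase-dead cells were higher by 1.55 ± 0.15 (adjusted p = 1.09e-06). The other riser was Hsp90aa1, a chaperone of HIF alpha (0.31 ± 0.09). At 1 h Cited2, which competes with HIF for its coactivators, rose by 0.50 ± 0.07 (adjusted p = 0.000438) in kinase-dead cells and 0.66 ± 0.07 (adjusted p = 6.35e-06) in wild-type cells.

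Of 35 other HIF targets tested, 0 passed in kinase-dead cells at 4 h by limma, while in wild-type cells 11 rose and 3 fell (31.4% and 8.57% of the 35, against 4.69% and 7.34% of all genes, so the share that fell is near that of all genes). The largest wild-type changes were those of Angptl4, a secreted regulator of lipases (2.88 ± 0.21, adjusted p = 5.01e-08), the growth factor gene Pdgfb (2.68 ± 0.42), the chemokine receptor Cxcr4 (-2.28 ± 0.28), the VEGF receptor Flt1 (1.92 ± 0.12) and the transferrin receptor Tfrc (0.71 ± 0.12). Angptl4 had signals of 83.5 and 58 without stimulation, 105 and 119 at 1 h and 143 and 106 at 4 h in kinase-dead cells, against 62.9 and 42.1, then 127 and 142, then 427 and 432 at the same points in wild-type cells. Its wild-type 4 h pair was far above all others. The responses at 4 h differed for 4 lower and 1 higher of the 35 (1.58% and 1.45% of all genes), with Angptl4 at -2.12 ± 0.29, Flt1 at -1.88 ± 0.17, Ero1a at -0.55 ± 0.14, Anxa2 at -0.40 ± 0.10 and Cxcr4 at 2.24 ± 0.40. At 1 h 1 of the 35 rose and 4 fell in kinase-dead cells (1.56% and 1.72% of all genes), and 5 rose and 5 fell in wild-type cells (2.92% and 4.52%). Edn1, the endothelin gene, led the rises with 1.61 ± 0.22 in kinase-dead and 2.36 ± 0.22 in wild-type cells, and the adenylate kinase Ak4 fell with -0.73 ± 0.15 and -0.90 ± 0.15. In unstimulated cells 5 were lower and 3 higher in kinase-dead cells (6.94% and 7.38% of all genes), among them Car12 (-1.27 ± 0.30), Bhlhe40 (-0.95 ± 0.17), Ak4 (-0.92 ± 0.15), Plod2 (0.79 ± 0.11) and Higd1a (0.46 ± 0.12). Averaged over conditions, 15 of the 35 were lower and 3 higher, against 13.7% and 18.2% of all genes.

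Of 17 other glycolysis genes tested, 0 passed in kinase-dead cells at 4 h, and 1 rose and 2 fell in wild-type cells: the glycerol phosphate dehydrogenase Gpd2 (0.51 ± 0.10), the bisphosphoglycerate mutase Bpgm (-0.83 ± 0.12) and the galactose mutarotase Galm (-0.95 ± 0.26). These counts are 5.88% and 11.8% of the 17, near the shares of all genes. Responses differed for Gpd2 (-0.70 ± 0.15) and Bpgm (0.79 ± 0.17). In unstimulated cells the glucose carrier Slc2a3, also called GLUT3, was higher in kinase-dead cells by 1.68 ± 0.17 (adjusted p = 2.49e-06), with signals of 292 and 306, against 92.2 and 83.8 in wild-type cells, opposite in sign to Slc2a1. The enolase Eno2 was higher as well (0.98 ± 0.29), and Emb, which encodes a partner protein of monocarboxylate carriers, was lower (-0.69 ± 0.14). Of 9 pentose phosphate pathway genes tested, 0 passed at 4 h in either genotype, and Rpia fell at 1 h in both (-0.93 ± 0.18 in kinase-dead and -0.86 ± 0.18 in wild-type cells). Of 27 genes of pyruvate oxidation and the citrate cycle, 0 passed in kinase-dead cells and 2 fell in wild-type cells at 4 h, Pdk2 (-0.94 ± 0.30) and Sucla2 (-0.32 ± 0.10), which is 7.41% of the 27 and near the 7.34% of all genes that fell. Pdk4, a pyruvate dehydrogenase kinase, had signals of 3107 and 2914 without stimulation, 3853 and 3841 at 1 h and 3249.9 and 3208 at 4 h in kinase-dead cells, against 1341 and 1259, then 1813 and 1762, then 1211 and 1151 at the same points in wild-type cells. It rose at 1 h in both genotypes (0.35 ± 0.08 in kinase-dead and 0.46 ± 0.08 in wild-type cells) and was higher in unstimulated kinase-dead cells by 1.21 ± 0.08 (adjusted p = 1.17e-08).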

How the data were processed

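RNA of the 12 samples was purified on RNeasy columns and labelled by the NuGEN Ovation method, per the labels. The authors deposited linear signal intensities, 1 per array for each probe set, made with MAS5 per the submitters' processing notes; for its version, settings and genome build, the sources used here give nothing. Each array's mean signal was 150 after trimming 2% at both ends. Of 45101 probe sets, 64 are controls, 34945 carry 1 gene name in the platform annotation, 932 several and 9160 none; 34741 of the named ones matched RefSeq's mouse table (GRCm38.p6), which was used for names.

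Samples were grouped by title. The title of wild-type unstimulated replicate 1 names no genotype; the series design, with 6 arrays for each, placed it. Probe sets with 2 or more arrays at 25.5 (the overall median signal) entered the tests, and the brightest of them stood for its gene. Members had 67 probe sets, of which 60 passed and 30 represent a gene; the other 30 were tested in a separate fit over all probe sets. Log2(signal + 8) was fitted with 6 group means and 6 residual degrees of freedom in limma 3.58.1 (R 4.3.3, eBayes with trend, two-sided), adjusted within each of 10 comparisons. The pseudocount of 8 is near the 25th percentile of all values (7.9). Scripts were tested on simulated data. Python 3.11.15 and matplotlib 3.10.9 made the plots. Precision is limited by the number of arrays.

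Alternatives for the members covered the pseudocount (1, 32), the filter (none, or a mean signal of at least 102), quantile normalization, median centring, eBayes without trend, a replicate block, the mean of all probe sets of a gene, only the groups compared, and leaving out each array. The members, lists, rule for named genes and tests were chosen with earlier results of these data known. Members called in any comparison are given on every array and the others by range; from other lists up to 5 called genes a comparison with separate arrays are named, fewer where space required.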

Additional observations from a re-analysis of the deposited data

Results flagged for a closer look

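Results are listed here because the response to IL-1b at 4 h differed between the genotypes by a test of the difference itself. All are kinase-dead minus wild-type changes on the log2 scale. The difference was -1.85 for Pfkfb3, -1.21 for Hk2, -0.98 for Ndrg1, -0.81 for Slc16a1 and -0.57 for Adm, and 0.74 for Mxi1.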

How the results depend on the processing

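Of 60 called pairs of member and comparison, 29 kept the call under every alternative in which they could be fitted. Over all alternatives, 1142 of 1301 values of called pairs kept the call, 159 lost it and 0 turned to the opposite sign. Of 5189 values of pairs not called, 68 were called and 235 changed sign without a call. In the following, counts are members called. The count for kinase-dead cells at 1 h, 1 as reported, was 0 without a filter and without the variance trend, and 2 with the stricter filter and with only the groups compared; at 4 h it was 1, with 0 without a filter, with median centring, without the trend and with the mean of all probe sets, and 2 with only the groups compared. For kinase-dead 4 h over 1 h (2) it was 0 without the trend, 1 with the mean of probe sets and 4 with only the groups compared, and for the response difference at 4 h (6) it was 0 without the trend and 3 with the mean of probe sets. Leaving out 1 array gave 0 to 2 at 1 h and at 4 h and 1 to 4 for 4 h over 1 h in kinase-dead cells. In wild-type cells it gave 2 to 3 at 1 h, 6 to 9 at 4 h and 8 to 15 for 4 h over 1 h, with 8 and 9 without 1 h replicate 1 and 2. For the response difference at 4 h it gave 2 to 8, with 2 when kinase-dead 4 h replicate 2 was left out, 3 when it was wild-type 4 h replicate 2 and 8 when it was wild-type unstimulated replicate 1. For unstimulated genotypes it gave 6 to 10 and for the mean over conditions 14 to 16. The replicate block left every count the same except that of unstimulated genotypes (8 against 9, Ldha lost at adjusted p = 0.0533). Deviations of same-numbered arrays from their group means correlated at -0.0501 to 0.0992 over 15 pairs of groups, with 0 above 0.1. Such values cannot show whether same-numbered arrays shared a culture or a day, which was not tested. Over all genes, counts moved by more than 1.5 times without the trend (157 against 378 for the response difference at 4 h, 18 against 61 at 1 h, 57 against 408 and 22 against 77 in kinase-dead cells at 1 h and 4 h, 81 against 503 for 4 h over 1 h there, 465 against 927 in wild-type cells at 1 h). They also moved with only the groups compared (286, 1001, 410, 674 and 1086 for kinase-dead 4 h, kinase-dead 4 h over 1 h, wild-type 1 h, wild-type 4 h and unstimulated genotypes), with the mean of probe sets (237 and 329 for kinase-dead 1 h and 4 h over 1 h) and without a filter (48 for kinase-dead 4 h). Leaving out 1 array gave all-gene counts of 95 to 640, 28 to 315 and 118 to 885 for kinase-dead 1 h, 4 h and 4 h over 1 h, 411 to 996, 968 to 1552 and 1382 to 2767 for wild-type cells likewise, 35 to 102 and 217 to 718 for the response differences at 1 h and 4 h, 1061 to 1997 for unstimulated genotypes and 3394 to 4125 for their mean over conditions. Settings also ended calls of single members, with these adjusted p. Without the trend, besides the 6 response differences and the kinase-dead Adm fall given above, they were 0.078 for Slc2a1 and 0.061 for Ldhb at 4 h, 0.179 for Hif1a at 1 h, and 0.117, 0.123, 0.071 and 0.0827 for Slc2a1, Aldoa, Tpi1 and P4ha2 for 4 h over 1 h, all in wild-type cells. In kinase-dead cells they were 0.184 for Ndrg1 at 1 h and 0.264 and 0.109 for Aldoa at 4 h and 4 h over 1 h. Between unstimulated genotypes they were 0.05 for Pfkp, 0.105 for Aldoa and 0.129 for Ldha, and over conditions 0.0993 for Tpi1. Without a filter they were 0.0676 for Ndrg1 at 1 h and 0.0579 for Aldoa at 4 h in kinase-dead cells, 0.0782 for Hif1a at 1 h, 0.0631 for Pfkm at 4 h, 0.0543 and 0.0635 for Aldoa and P4ha2 for 4 h over 1 h in wild-type cells, 0.0698 for the Adm response difference and 0.0543 for Ldha between unstimulated genotypes. With the mean of probe sets they were 0.231 for Ndrg1 at 1 h and 0.565 and 0.684 for Aldoa at 4 h and 4 h over 1 h in kinase-dead cells, 0.0558 for Pfkfb3 and 0.0783 for Ldhb at 4 h and 0.0614 and 0.311 for Pfkfb3 and Aldoa for 4 h over 1 h in wild-type cells, 0.725, 0.139 and 0.132 for the Pfkfb3, Ndrg1 and Adm response differences and 0.818 for Aldoa between unstimulated genotypes. Median centring ended the calls of Aldoa at 4 h in kinase-dead cells (0.0524), of Pfkm (0.0849) and Ldhb (0.0957) at 4 h and Aldoa for 4 h over 1 h (0.131) in wild-type cells, and of Ldha between unstimulated genotypes (0.0818). With quantile normalization Hif1a at 1 h (0.235), Pfkm (0.0635) and Ldhb (0.0786) at 4 h in wild-type cells and the Adm response difference (0.0622) were lost. With only the groups compared, Hif1a at 1 h (0.118), Slc2a1 (0.075), Pfkm (0.102) and Ldhb (0.125) at 4 h in wild-type cells, the Adm response difference (0.103), and Pfkp (0.0657), Aldoa (0.124) and Ldha (0.176) between unstimulated genotypes were lost. The cause was not tested. With 2 arrays a group and signals near 25.5 for Car9, Aldoc and Ankrd37, small changes could not be resolved.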
